A study of Mus musculus with 10 samples.

Results

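Core circadian clock genes were followed in mouse kidney after ischaemia and reperfusion. The set holds 10 genes, Arntl (also written Bmal1), Clock, Per1, Per2, Per3, Cry1, Cry2, Nr1d1, Nr1d2 and Dbp, chosen by name among the 55359 genes of the deposited table, with earlier results of these data known. Each name matched 1 row, and all 10 passed the filter on low values (at least 1 FPKM, the count scaled by exonic length and library total, in 5 or more libraries), which left 13324 genes. Kidneys of male mice came from 2 groups, 5 after sham surgery and 5 after 30 min of ischaemia and 24 h of reperfusion (IRI). The labels give no strain, age or diet, no interval after the sham operation and no time of day at sampling for either group. Differences in circadian phase and differences due to injury cannot be told apart for that reason. No label says that each library is a separate mouse, so the p-values measure the spread between libraries.

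The circadian clock of mammalian cells is a transcriptional feedback loop. ARNTL and CLOCK form a heterodimer that binds E-box elements and drives the Per and Cry genes, whose protein products enter the nucleus and repress the heterodimer. A further loop runs through REV-ERB alpha and beta, encoded by Nr1d1 and Nr1d2, which repress Arntl, while DBP drives genes with D-box elements. In the kidney this clock is known for daily rhythms of sodium and water handling, and Per1 also responds directly to glucocorticoids.

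Library totals were 13147899 to 18603272 counts. The 10 members had between 54 and 4160 counts per library, so counting error was small beside the differences described for the members of largest change. Markers of kidney epithelium and podocytes were detected in every library. The 10 proximal tubule markers fell (10 of 10 called lower), and their summed level went from 2080 to 2920 FPKM in sham to 170 to 1070 FPKM in IRI. The 10 neutrophil markers summed to 1.28 to 3.37 FPKM in sham and 23.9 to 109 FPKM in IRI. Of these, 5 passed the filter, through their IRI values alone, and were called higher. With no filter on low values 9 were called higher, and Ly6g and Camp were at 0 in all sham libraries. The 6 adrenal gland markers summed to 1.04 to 1.61 FPKM in sham and 1.83 to 4.14 FPKM in IRI. Most of this was Star, with a mean of 1.16 FPKM in sham and 2.38 FPKM in IRI, and Hsd3b1 went from 0.064 to 0.462 FPKM. Cyp11b1, Cyp11b2 and Cyp21a1 were at 0 in all sham libraries and had only 2, 3 and 1 counts over all IRI libraries together. Cyp11a1 had 3 counts in sham and 1 in IRI. Mitochondrial rRNA took 0.214% to 0.450% of counts in 4 IRI libraries and 2.31% in IRI replicate 1. The part of these shifts in the clock gene results was not tested. In bulk tissue, fewer cells of a type and less RNA per cell cannot be told apart.

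Promoter windows are shown for members that hold a known clock element, to give the letters of those elements in place. RefSeq promoter windows (build GRCm38.p6, 250 bases before to 50 after a start site) were found for 9 members in 13 entries. Each was searched on both strands for an E-box (CACGTG), a D-box (TTATGTAA or TTACGTAA), a REV-ERB/ROR element (TAGGTCA or TGGGTCA) and a cyclic AMP response element (TGACGTCA). No searched pair of motifs overlapped in a member's window. The E-box was in 7.15% of all 32851 promoter windows and in 2 of the 13 member windows, 1 each of Per1 and Cry1. The D-box was in 1.06% of all windows and in the Per3 window, at 2 places. The REV-ERB/ROR element was in 6.45% of all windows and in 1 of the 2 Arntl windows, 30 bases after the start site. The cyclic AMP response element was in 1.79% of all windows and in none of the 13. A match describes letters in a window and not a bound site, and no table here links a match to a response. Clock, Dbp, Cry2, Nr1d1 and Nr1d2 had no match, and Per2 had no window to search. The windows with a match follow, 5′ to 3′ on the gene's strand with the motif in capitals. Per1 lies at chr11:69098699-69098998 (plus strand), Cry1 at chr10:85185005-85185304 (minus), Arntl at chr7:113207261-113207560 (plus) and Per3 at chr4:151044616-151044915 (minus), all in GRCm38.p6.
Per1: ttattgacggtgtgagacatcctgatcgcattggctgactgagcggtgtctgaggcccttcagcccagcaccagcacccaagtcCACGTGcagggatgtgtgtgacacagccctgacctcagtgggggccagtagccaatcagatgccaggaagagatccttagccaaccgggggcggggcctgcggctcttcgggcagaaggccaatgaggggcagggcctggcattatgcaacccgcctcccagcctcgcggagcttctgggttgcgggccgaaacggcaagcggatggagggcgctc
Cry1: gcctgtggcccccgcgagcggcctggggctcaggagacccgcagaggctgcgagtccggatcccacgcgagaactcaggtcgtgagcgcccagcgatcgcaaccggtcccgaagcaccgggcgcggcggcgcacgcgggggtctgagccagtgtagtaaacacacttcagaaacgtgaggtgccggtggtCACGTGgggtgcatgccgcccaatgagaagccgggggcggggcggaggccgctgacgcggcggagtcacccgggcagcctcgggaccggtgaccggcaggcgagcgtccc
Arntl: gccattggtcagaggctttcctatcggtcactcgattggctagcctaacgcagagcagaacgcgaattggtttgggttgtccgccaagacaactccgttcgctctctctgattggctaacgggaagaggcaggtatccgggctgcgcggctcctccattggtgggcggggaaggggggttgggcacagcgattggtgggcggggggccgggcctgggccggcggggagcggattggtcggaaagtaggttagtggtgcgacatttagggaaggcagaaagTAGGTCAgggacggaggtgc
Per3: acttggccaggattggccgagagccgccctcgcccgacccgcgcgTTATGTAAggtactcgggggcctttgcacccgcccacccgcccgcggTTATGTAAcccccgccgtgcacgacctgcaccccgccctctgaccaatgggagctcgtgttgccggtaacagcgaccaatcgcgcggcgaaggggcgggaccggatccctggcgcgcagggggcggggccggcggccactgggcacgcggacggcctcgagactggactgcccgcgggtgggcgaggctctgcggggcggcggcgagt

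The comparison of IRI with sham asked which clock transcripts differed after reperfusion. Of the 7 members that encode repressors, 6 rose: Per1, Per2, Cry1, Cry2, Nr1d1 and Nr1d2 were called higher in IRI by edgeR's quasi-likelihood test (Benjamini-Hochberg adjusted p under 0.05 over all 13324 genes). The seventh, Per3, was not called, nor were Arntl, Clock and Dbp. Of all genes tested, 34.5% were called higher, against 6 of the 10 members, and 32.4% were called lower, against 0 of the 10. The median log2 fold change was 0.52 over the members and 0.05 over all genes tested. At an unadjusted p under 0.05 edgeR also had 0 members lower, and so had DESeq2 and limma after adjustment. The same 6 members had every IRI library above every sham library in FPKM, as did 36.7% of all genes tested. FPKM is not scaled as the test is, and on the scale of the test Nr1d1 overlapped between groups. No member had every IRI library below every sham library, a pattern found in 18.6% of genes.

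The activators Arntl and Clock, which open the loop, showed no called change. Arntl (chromosome 7, 112806672 to 112913333 in GRCm39, as are all gene positions here) had 1.82, 2.74, 2.56, 2.08 and 2.51 FPKM in sham replicates 1 to 5 and 1.99, 2.87, 0.76, 2.21 and 1.40 FPKM in IRI replicates 1 to 5. In FPKM the IRI values ranged around the sham values, with replicate 2 the highest of all 10 libraries and replicate 3 the lowest. The log2 fold change was -0.60 ± 0.28 (SE; adjusted p = 0.0803, edgeR). Without IRI replicate 2 it was -0.80 and passed the threshold (adjusted p = 0.0251, edgeR; 0.0506 to 0.277 under the other alternatives). It was -0.40 without IRI replicate 3, -0.35 with library totals and -0.27 by limma on log2(FPKM + 1), none of them past the threshold. Clock (chromosome 5, 76357715 to 76452639) had 3.32 to 4.56 FPKM in sham and 4.44 to 5.28 FPKM in IRI, and 3 IRI libraries exceeded every sham library. Its log2 fold change was 0.10 ± 0.10 (adjusted p = 0.394, edgeR). FPKM is scaled by library totals, whereas edgeR was scaled by TMM factors, which allow for differences in composition. With these factors Arntl in IRI replicate 2 (factor 1.104) fell below sham replicate 2 (factor 0.895). IRI replicates 3, 4 and 5 then lay below every sham library for Arntl, replicate 4 by little. For Clock, no IRI library exceeded every sham library on that scale. Scaling edgeR by library totals raised the median log2 fold change of all genes by 0.25, put Clock at 0.35 (adjusted p = 0.00874, edgeR) and called 8 members higher and 0 lower.

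Of the Period genes, which encode repressors of the loop, Per1 and Per2 rose and Per3 did not pass the test. Per1 (chromosome 11, 68986043 to 69000786) had 6.45, 7.72, 12.4, 8.53 and 9.20 FPKM in the sham libraries and 45.4, 34.2, 25.4, 36.9 and 32.4 FPKM in the IRI libraries. The lowest IRI library, replicate 3, still lay above the highest sham library. Per1 rose 3.34-fold (log2 1.74 ± 0.19, adjusted p = 9.54e-06, edgeR) and went from the fourth to the first place in FPKM among the members. Per2 (chromosome 1, 91343704 to 91387046) had 4.11, 4.08, 3.99, 3.79 and 3.25 FPKM in sham and 11.5, 10.4, 10.1, 9.07 and 10.9 FPKM in IRI. Both groups were tight, with a coefficient of variation of 9.23% in sham and 8.75% in IRI. Per2 rose 2.27-fold (log2 1.19 ± 0.11, adjusted p = 1.93e-06, edgeR). Per3 (chromosome 4, 151088109 to 151129122) had 3.03, 1.97, 3.22, 2.78 and 2.55 FPKM in sham and 2.47, 2.50, 4.06, 2.66 and 3.38 FPKM in IRI. The groups overlapped, with only IRI replicates 3 and 5 above the sham range in FPKM. Its log2 fold change was -0.10 ± 0.16 (adjusted p = 0.607, edgeR) and changed sign, uncalled, to 0.16 with library totals. All of Per3 lies within Camta1 on the same strand, which rose by 0.65 ± 0.14 (adjusted p = 0.00107, edgeR).

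Both Cryptochrome genes, whose proteins repress ARNTL and CLOCK together with the PER proteins, rose. Cry1 (chromosome 10, 84967564 to 85020928) was the lowest member in sham, with 1.09, 1.21, 1.57, 1.32 and 1.44 FPKM, and had 7.67, 9.59, 3.60, 4.37 and 5.32 FPKM in IRI. IRI replicates 1 and 2 stood above the other IRI libraries, and no IRI library reached down to the sham range. The 3.89-fold rise was the largest among the members (log2 1.96 ± 0.27, adjusted p = 4.53e-05, edgeR). Cry2 (chromosome 2, 92233991 to 92264388) had 2.66, 2.80, 3.23, 3.01 and 2.16 FPKM in sham and 10.2, 9.50, 7.65, 9.79 and 8.54 FPKM in IRI. The IRI libraries varied by 11.2% for Cry2 and by 40.5% for Cry1 (coefficient of variation). Cry2 rose 2.78-fold (log2 1.47 ± 0.13, adjusted p = 1.56e-06, edgeR).

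**Figure D1:**
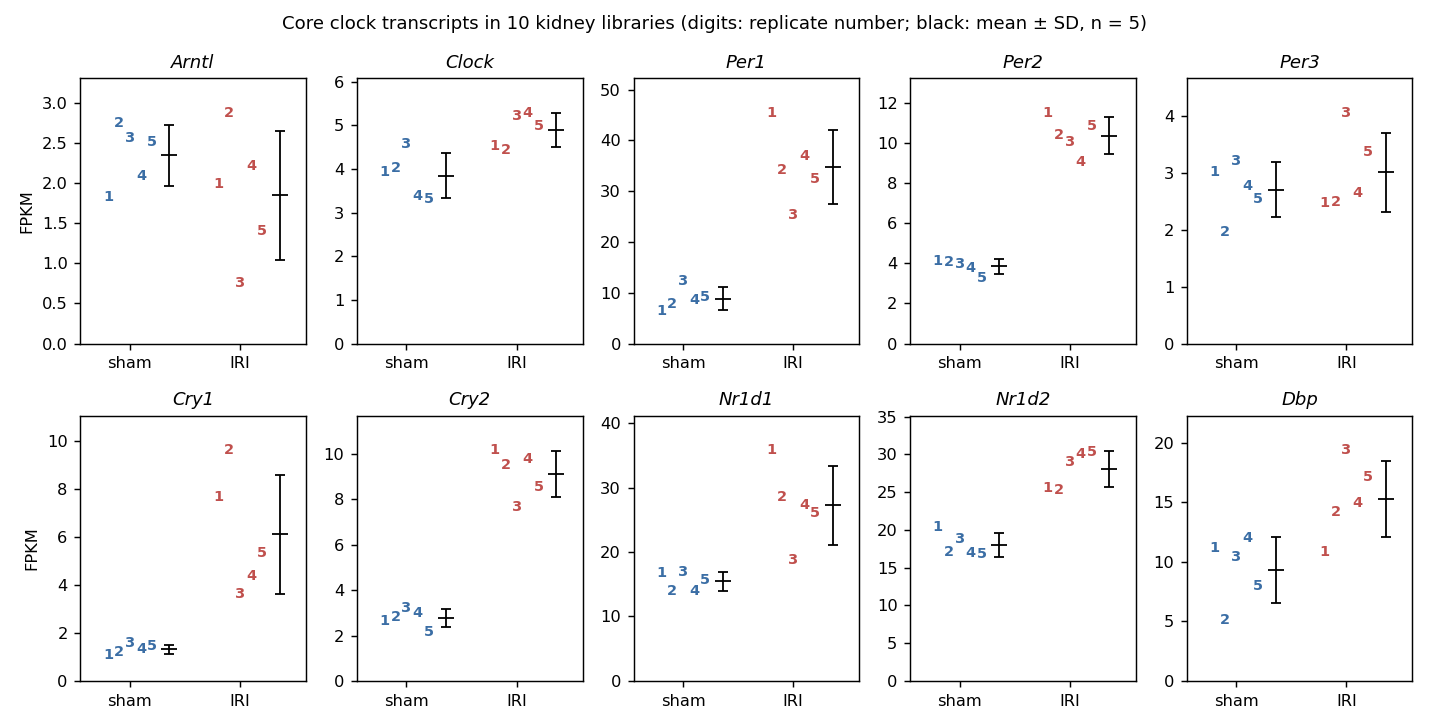
FPKM of the 10 core clock genes in each library, with sham in blue and IRI in red, digits for the replicate number and black bars for mean ± SD (n = 5 per group). Per1, Per2, Cry1, Cry2, Nr1d1 and Nr1d2 have no overlap between groups in FPKM, while Arntl, Clock, Per3 and Dbp overlap.

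The REV-ERB genes, which encode nuclear receptors that repress Arntl, rose by less. Nr1d1 (chromosome 11, 98658758 to 98666159) had 16.7, 14.0, 16.9, 14.0 and 15.7 FPKM in sham and 35.8, 28.6, 18.7, 27.2 and 26.0 FPKM in IRI. In FPKM, IRI replicate 3 lay just above the sham range and replicate 1 far above it. TMM factors were 1.097 for IRI replicate 3, 0.917 for sham replicate 1 and 0.941 for sham replicate 3. With them IRI replicate 3 fell within the sham range, so the groups overlapped on the scale of the test. The rise was 1.49-fold (log2 0.58 ± 0.16, adjusted p = 0.00669, edgeR). Nr1d1 shares 1075 bases with Thra, the thyroid hormone receptor gene on the opposite strand. No source used here names the strand setting of the counting, and reads from the shared stretch may belong to either gene. Thra itself fell by 0.66 on the log2 scale (SE 0.08, adjusted p = 1.81e-05, edgeR). Nr1d2 (chromosome 14, 4230569 to 4265642) had 20.3, 17.1, 18.8, 16.9 and 16.8 FPKM in sham and 25.6, 25.3, 29.0, 30.1 and 30.3 FPKM in IRI. It varied little, with a coefficient of variation of 8.59% in sham and 8.65% in IRI, and rose 1.31-fold (log2 0.39 ± 0.08, adjusted p = 0.00121, edgeR).

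Dbp, a PAR bZIP activator whose gene is a direct output of ARNTL and CLOCK, lay at the edge of the threshold. Dbp (chromosome 7, 45354512 to 45359627) had 11.2, 5.15, 10.4, 12.0 and 7.95 FPKM in sham and 10.8, 14.2, 19.4, 15.0 and 17.2 FPKM in IRI. In FPKM, IRI replicate 1 fell within the sham range and the other 4 IRI libraries lay above it. With TMM factors (1.104 for IRI replicate 2, 0.907 for sham replicate 4) IRI replicate 2 also fell within the sham range. The log2 fold change was 0.46 ± 0.20 (adjusted p = 0.0643, edgeR). It passed the threshold without sham replicate 1 (0.55, adjusted p = 0.0451), without sham replicate 4 (0.59, adjusted p = 0.0299), without IRI replicate 1 (0.54, adjusted p = 0.0360), with library totals (0.72, adjusted p = 0.00972), with upper quartile factors (0.50, adjusted p = 0.0498) and with no filter (0.48, adjusted p = 0.0401), all by edgeR. It also passed by limma on log2(FPKM + 1) (0.68, adjusted p = 0.0113) and on log2(FPKM + 0.1) (0.74, adjusted p = 0.0128), and its adjusted p under all alternatives ranged from 0.00972 to 0.151. Dbp shares 737 bases with Sphk2 on the opposite strand, which fell by 0.42 on the log2 scale (SE 0.09, adjusted p = 0.00162, edgeR).

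The order of levels per length differed between groups as a description. In sham, Nr1d2 (18.0 ± 1.55 FPKM, SD, n = 5) and Nr1d1 (15.4 ± 1.44) led, followed by Dbp (9.33 ± 2.78) and Per1 (8.85 ± 2.21), then Clock (3.84 ± 0.514), Per2 (3.84 ± 0.355), Cry2 (2.77 ± 0.404), Per3 (2.71 ± 0.485), Arntl (2.34 ± 0.379) and Cry1 (1.33 ± 0.188). Neighbours whose sham ranges overlapped were Nr1d2 and Nr1d1, Dbp and Per1, Clock and Per2, Cry2 and Per3, and Per3 and Arntl. In IRI the order was Per1 (34.9 ± 7.28 FPKM), Nr1d2 (28.1 ± 2.43), Nr1d1 (27.2 ± 6.10), Dbp (15.3 ± 3.22), Per2 (10.4 ± 0.907), Cry2 (9.13 ± 1.02), Cry1 (6.11 ± 2.47), Clock (4.89 ± 0.388), Per3 (3.01 ± 0.692) and Arntl (1.85 ± 0.803). All neighbours in that order overlapped in range except Clock and Per3.

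Ratios of 2 members within a library do not depend on how libraries are scaled, and 6 were tested for a difference in response (exact two-sided permutation test over 252 assignments of the libraries, smallest possible p = 0.00794, Benjamini-Hochberg over the 6). Per1 and Per2 rose relative to Per3 by the difference of means. Neither ratio passed by the difference of medians (adjusted exact permutation p = 0.0952 for each). Several assignments share the same medians even where groups separate fully. By medians the adjusted p could therefore fall under 0.05 only if all 6 ratios reached the smallest possible p, so this miss cannot count against either ratio. The log2 ratio Per1/Per3 was 0.32, 1.20, 1.17, 0.84 and 1.08 in sham and 3.43, 3.00, 1.87, 3.02 and 2.49 in IRI. The groups did not overlap, and the ratio was 3.58-fold higher in IRI (difference in log2 1.84 ± 0.31 SE, adjusted exact permutation p = 0.0238). Per2/Per3 was -0.27, 0.33, -0.40, -0.27 and -0.36 in sham and 1.51, 1.34, 0.60, 1.05 and 0.97 in IRI. This ratio was 2.44-fold higher (difference 1.29 ± 0.21, adjusted exact permutation p = 0.0238), again without overlap.

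The other 4 ratios overlapped between groups and did not pass after adjustment. The difference between groups was 0.55 ± 0.22 for Per1/Per2 (adjusted exact permutation p = 0.0714), 0.40 ± 0.25 for Cry1/Cry2 (adjusted exact permutation p = 0.181) and 0.15 ± 0.19 for Nr1d1/Nr1d2 (adjusted exact permutation p = 0.468), all on the log2 scale. For Arntl/Clock it was -0.82 ± 0.38 (adjusted exact permutation p = 0.0714), -1.04 without IRI replicate 2 (adjusted exact permutation p = 0.0159), -0.50 without IRI replicate 3 (adjusted exact permutation p = 0.0952) and -0.56 as a difference of medians (adjusted exact permutation p = 0.286). These p-values do not show that the genes of a ratio responded alike.

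**Figure D2:**
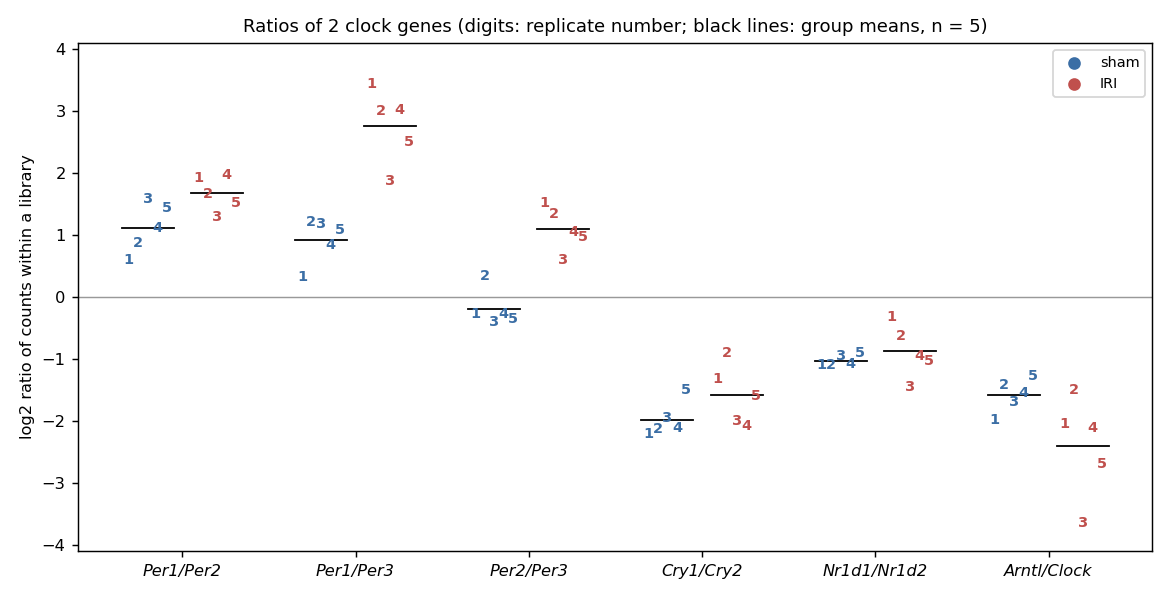
Log2 ratio of the counts of 2 clock genes within each library, with sham in blue, IRI in red, digits for the replicate number and black lines for group means (n = 5 per group). Per1/Per3 and Per2/Per3 separate the groups, and Arntl/Clock in IRI replicate 3 lies lowest at -3.65.

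The members spread more in IRI for Arntl (coefficient of variation 43.5%, against 16.2% in sham), Cry1 (40.5% against 14.2%) and Nr1d1 (22.4% against 9.31%), a description with no test. Clock, Per1, Per2, Cry2 and Dbp spread less in IRI than in sham (Clock 7.94% against 13.4%, Dbp 21.1% against 29.8%), Per3 spread somewhat more (22.9% against 17.9%) and Nr1d2 was nearly equal. IRI replicates 1 and 3 and sham replicate 2, picked out after their values were seen, lay off the means of their groups for several members at a time. Relative to the mean of its own group in log2 CPM (counts scaled by library size and TMM factor), IRI replicate 3 lay at -1.13 for Arntl, -0.67 for Cry1, -0.52 for Nr1d1 and -0.44 for Per1, and at 0.45 for Per3 and 0.36 for Dbp. In the same library Nfil3 lay at -1.24 and Npas2 at -0.48, while Hlf lay at 0.72 and Tef at 0.31. IRI replicate 1 lay at 0.54 for Per1, 0.55 for Cry1, 0.55 for Nr1d1 and 0.36 for Arntl, and at -0.34 for Dbp. In it Nfil3 lay at 1.31, Ciart at 1.16 and Hlf at 0.83. Hlf was thus high in IRI replicates 1 and 3 alike, while Arntl and Nfil3 lay on opposite sides in them. IRI replicate 1 also had the highest mitochondrial rRNA share, 2.31%, and the highest neutrophil marker sum, 109 FPKM. Its proximal tubule marker sum, 1070 FPKM, was the highest of the IRI libraries, followed by IRI replicate 3 at 390 FPKM. The part of these levels in the deviations was not tested. Sham replicate 2 lay at -0.76 for Dbp and -0.40 for Per3, with Ciart at -0.88, and at 0.27 for Arntl, 0.40 for Npas2 and 0.48 for Nfil3, with Cry1 (-0.09), Nr1d1 (-0.11) and Per1 (-0.13) near the mean. Arntl, Npas2 and Nfil3 deviated to one side and Dbp and Per3 to the other in 8 of the 10 libraries, the exceptions being sham replicate 3 and IRI replicate 4, a pattern noticed in these values and not tested. IRI replicate 3 had the lowest neutrophil marker sum of the IRI libraries, 23.9 FPKM, and the lowest mitochondrial rRNA share, 0.214%. Whether sampling time differed between these libraries was not tested.

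**Figure D3:**
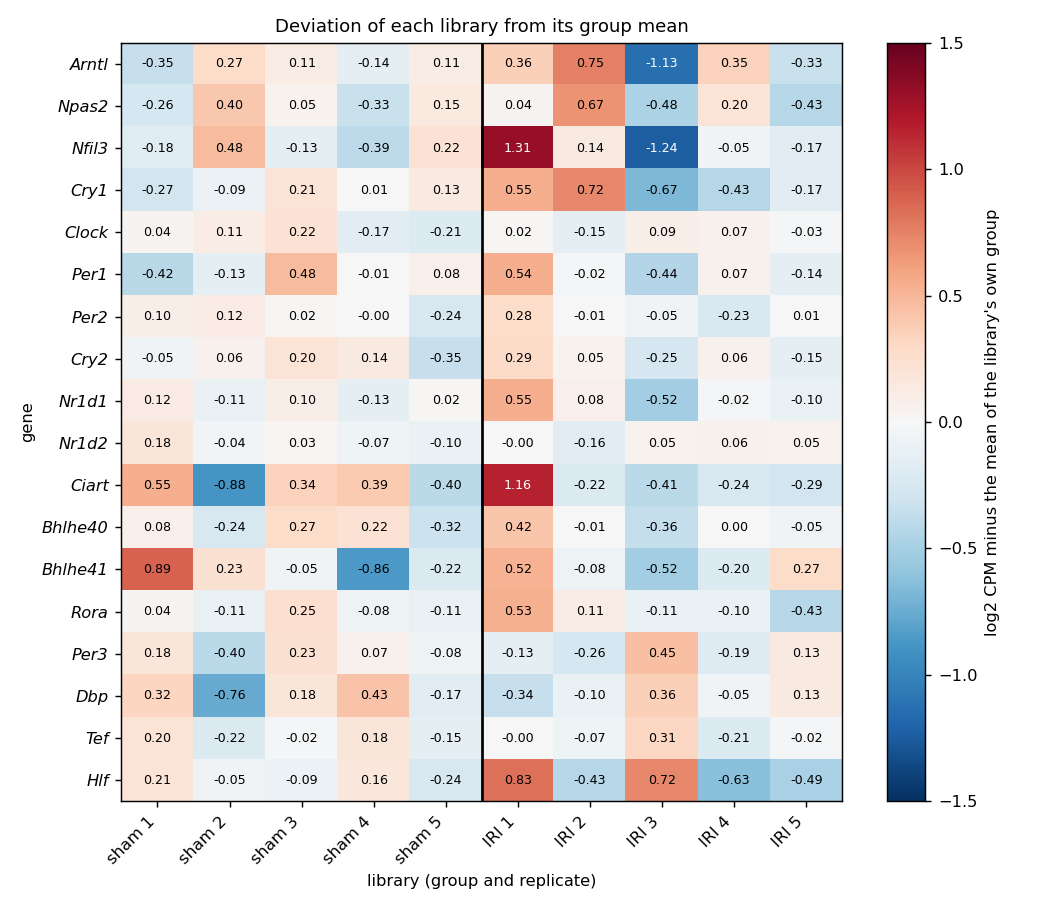
Deviation of each library from the mean of its own group in log2 CPM for the 10 members and 8 tested clock partners, with red above and blue below the mean and the gene order set after the values were seen. IRI 3 is low for Arntl (-1.13) and Nfil3 (-1.24) and high for Hlf (0.72), and sham 2 is low for Ciart (-0.88) and Dbp (-0.76). IRI 1 is high for both Nfil3 (1.31) and Hlf (0.83).

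Clock partners, the transcription factors that share binding sites or targets with the members, moved in both directions. Of the 10 genes described here 8 passed the filter, of which 4 were called higher, 3 lower and 1 not called. Their median log2 fold change was 0.49, against 0.05 over all genes tested, and lay between genes of opposite direction, so that 1 gene more or less moves it. Bhlhe40 and Bhlhe41, which encode the E-box repressors DEC1 and DEC2, rose. Bhlhe40 had 14.2, 11.1, 16.6, 15.5 and 10.8 FPKM in sham and 67.3, 55.1, 42.9, 56.8 and 55.2 FPKM in IRI, a 3.44-fold rise (log2 1.78 ± 0.16, adjusted p = 1.89e-06, edgeR). Bhlhe41 went from 0.152 ± 0.0740 to 1.69 ± 0.430 FPKM (SD, n = 5; log2 3.24 ± 0.32, adjusted p = 3.36e-06, edgeR) and passed the filter through its IRI values. Ciart, which encodes a further repressor of ARNTL and CLOCK, had 0.97 to 2.77 FPKM in sham and 3.96 to 10.8 FPKM in IRI (log2 1.28 ± 0.36, adjusted p = 0.00793, edgeR), with IRI replicate 1 far above the others (log2 0.85 without it, adjusted p = 0.0128, edgeR).

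Other bZIP factors that bind D-boxes moved in different directions. Tef and Hlf, activators of the same PAR bZIP family as Dbp, fell, and no IRI library reached the sham range of either. Hlf had 18.3, 14.9, 15.1, 17.5 and 13.4 FPKM in sham and 5.28, 2.42, 5.37, 2.14 and 2.40 FPKM in IRI (log2 -2.40 ± 0.29, adjusted p = 1.69e-05, edgeR). Tef had 39.1, 28.5, 34.4, 38.1 and 30.7 FPKM in sham and 18.1, 19.0, 24.7, 17.6 and 20.4 FPKM in IRI (log2 -1.03 ± 0.12, adjusted p = 1.55e-05, edgeR). Nfil3, which encodes the D-box repressor E4BP4, had 4.02, 6.24, 4.27, 3.44 and 5.35 FPKM in sham and 28.7, 14.0, 5.30, 12.6 and 11.7 FPKM in IRI. IRI replicate 3 lay within the sham range and the other IRI libraries above it (log2 1.40 ± 0.38, adjusted p = 0.00599, edgeR; 0.93 without IRI replicate 1). Beside Tef and Hlf falling, Dbp was at 0.46 and not called. The summed proximal tubule markers stood at 170 to 1070 FPKM in these IRI libraries, against 2080 to 2920 FPKM in sham, and their part in the falls was not tested.

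Npas2, a paralog of Clock that also pairs with ARNTL, fell. It had 2.19, 3.38, 2.79, 2.06 and 2.92 FPKM in sham and 1.18, 2.03, 0.89, 1.49 and 0.97 FPKM in IRI, with every IRI library below every sham library (log2 -1.28 ± 0.23, adjusted p = 0.000398, edgeR). Rora, which encodes a nuclear receptor that activates Arntl, was at -0.30 ± 0.16 (adjusted p = 0.110, edgeR), or -0.45 without IRI replicate 1 (adjusted p = 0.00532, edgeR; IRI replicate 1 held the highest IRI value). It was -0.06 with library totals (adjusted p = 0.722, edgeR). Arntl2, a paralog of Arntl, was under 1 FPKM in every library and so outside the filter, but had 0.27 to 0.47 FPKM in sham and 0.74 to 0.94 FPKM in IRI. With no filter it was called higher (log2 0.86 ± 0.23, adjusted p = 0.00525, edgeR), as were 5 of the 10 partners. Rorb was under 0.1 FPKM in every library.

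**Figure D4:**
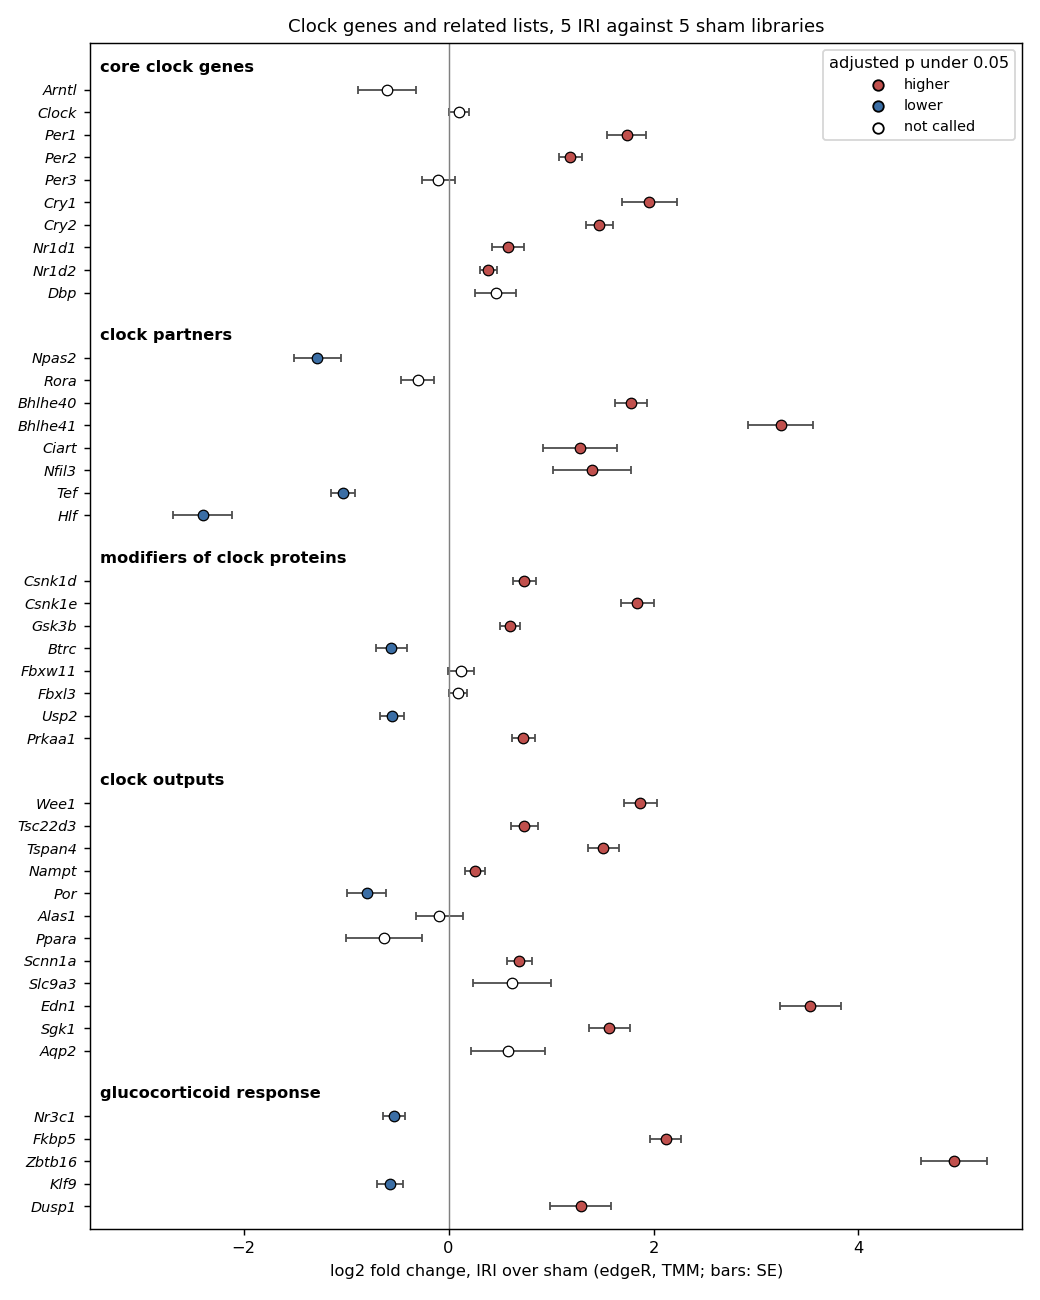
Log2 fold change of IRI over sham (edgeR, TMM factors, bars SE) for the tested members and genes of 4 related lists, red for called higher, blue for called lower and white for not called. Genes on 2 lists are drawn once, so Tsc22d3 and Sgk1 of the glucocorticoid list and Usp2 of the output list stand further up. Cry1 (1.96) leads the members, and Hlf (-2.40) falls furthest among the genes drawn.

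Genes whose proteins modify or degrade clock proteins were called higher in 4, lower in 2 and not called in 2 of 8 tested of 9 (median 0.36), against 34.5% higher and 32.4% lower over all genes tested. Csnk1e and Csnk1d, the casein kinases that phosphorylate PER proteins, rose. Csnk1e had 2.13 to 3.87 FPKM in sham and 8.83 to 12.1 FPKM in IRI (log2 1.84 ± 0.16, adjusted p = 1.43e-06, edgeR) and Csnk1d went from 18.5 ± 1.18 to 36.6 ± 3.83 FPKM (log2 0.74 ± 0.11, adjusted p = 6.18e-05, edgeR). Prkaa1, the AMP-activated kinase subunit that acts on CRY proteins, rose by 0.73 ± 0.11, and Gsk3b, a kinase with several clock substrates, by 0.60 ± 0.10 on the log2 scale. Btrc, a ubiquitin ligase adaptor for PER proteins, was at -0.56 ± 0.15 and Usp2, a deubiquitinase with a rhythmic transcript, at -0.55 ± 0.12, both called lower by edgeR. With library totals neither of these 2 was called (adjusted p = 0.0573 and 0.0791, edgeR), which left 0 of this list lower. Fbxl21, an adaptor that binds CRY proteins, did not pass the filter, with 0.73 to 1.06 FPKM in sham and 0.19 to 0.54 FPKM in IRI. With no filter it was called lower (log2 -1.56 ± 0.29, adjusted p = 0.000175, edgeR).

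Clock outputs, genes with rhythmic transcripts in many tissues or in kidney, were called higher in 7, lower in 2 and not called in 4 of 13 tested of 14 (median 0.62, against 0.05 over all genes tested, of which 34.5% were called higher and 32.4% lower). Wee1, which encodes a cell cycle kinase, had 2.52 to 3.71 FPKM in sham and 10.5 to 16.5 FPKM in IRI (log2 1.87 ± 0.16, adjusted p = 1.44e-06, edgeR). Tspan4, a tetraspanin gene, went from 13.5 ± 2.34 to 45.6 ± 7.40 FPKM (log2 1.51 ± 0.15). Edn1, which encodes endothelin and is a renal target of PER1, went from 0.952 ± 0.180 to 13.0 ± 4.77 FPKM (log2 3.53 ± 0.30). With 0.74 to 1.16 FPKM in sham, it needed its IRI values to pass the filter. Scnn1a, the epithelial sodium channel subunit that PER1 also regulates, rose by 0.69 ± 0.12 on the log2 scale (adjusted p = 0.000264, edgeR). The part of Per1 in the changes of Edn1 and Scnn1a was not tested. Por, which encodes the reductase of cytochromes P450, and Usp2 were the 2 lower genes, at -0.80 ± 0.19 and -0.55 ± 0.12.

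Per1 has a glucocorticoid response, so transcripts of that response were set beside it. Of the 7 genes on this list 5 were called higher and 2 lower (median 1.29), against 34.5% and 32.4% of all genes tested. Zbtb16, a zinc finger factor induced by glucocorticoids, went from 0.236 ± 0.125 to 8.72 ± 2.80 FPKM (log2 4.93 ± 0.32, adjusted p = 2.32e-07, edgeR) and passed the filter through its IRI values. Fkbp5, a chaperone that restrains the receptor, had 6.13 to 8.30 FPKM in sham and 27.9 to 50.5 FPKM in IRI (log2 2.12 ± 0.15, adjusted p = 3.69e-07, edgeR). Sgk1, a kinase that promotes sodium transport, rose by 1.57 ± 0.20, Dusp1, a phosphatase of MAP kinases, by 1.29 ± 0.30, and Tsc22d3, which encodes GILZ, by 0.74 ± 0.13 on the log2 scale. The receptor gene Nr3c1 was at -0.53 ± 0.11 and Klf9, a Kruppel-like factor, at -0.57 ± 0.13, both called lower by edgeR. Circulating glucocorticoid was not measured in these files, and its part in the Per1 values was not tested.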

How the data were processed

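Kidney mRNA of 10 libraries (5 sham, 5 IRI) was analysed. Oligo(dT) selection from 1 µg of RNA and paired reads of 150 bases are stated per the labels' protocols. The authors deposited whole-number counts per gene and FPKM values, which equalled count per exonic length and library total within rounding (100% of values). The submitters' processing notes list Cutadapt 1.9.1, HISAT2 2.0.1, HTSeq 0.6.1 and GRCm39, giving no roles. The strand setting and annotation release are not given in the sources used here. Symbols were found for 52083 genes by identifier.

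Genes reaching 1 FPKM in at least 5 libraries were kept, and their counts tested with edgeR 4.0.16 (R 4.3.3, quasi-likelihood, TMM factors), with Benjamini-Hochberg adjustment and a threshold of 0.05. Standard errors are the fold change over the square root of F. Ratios used exact permutation. The test was tried on simulated counts for 13324 genes, with both groups drawn from the sham means and spread and 50 genes changed at each fold. There edgeR recovered 46% of genes changed 1.5-fold, 84% at 2-fold and 98% at 4-fold, with 6.29% of calls false. Real IRI libraries varied more and many more genes were called, so these rates need not hold for the real comparison. Totals ranged from 13147899 to 18603272 counts. No 2 libraries of a group agreed within counting error (chi-square over its degrees of freedom, 8.76 to 39 in sham and 14.1 to 106 in IRI).

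The members and gene lists were chosen with earlier results of these data known. The rule named all members, up to 4 called genes of largest change and 2 uncalled genes per list, and the 3 genes most like Arntl and Dbp. Leaving out most uncalled genes, and naming Npas2, Ciart, Tef, Usp2, Btrc, Tsc22d3, Nr3c1, Klf9, Scnn1a and Por, was decided after values were seen. Marker lists are given as sums and counts. A gene of the list of clock partners is not reported here. Alternatives were other scalings, filters, tests (DESeq2 1.42.0, limma 3.58.1), thresholds, a replicate block and leaving out each library.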

Additional observations from a re-analysis of the deposited data

Results flagged for a closer look

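Among 6 values that stood far from the other 4 of their group, 1 concerns the members: the log2 ratio Per2/Per3 was 0.33 in sham replicate 2, against -0.40 to -0.27 in the other sham libraries. Of the partners, Ciart had 10.8 FPKM in IRI replicate 1, against 3.96 to 4.57 in the other IRI libraries. Csnk1e (3.87 FPKM, others 2.13 to 2.47) and Prkaa1 (9.44 FPKM, others 6.48 to 7.16) were both high in sham replicate 3. Wdr5, which encodes a histone methyltransferase scaffold, had 28.9 FPKM in IRI replicate 2 (others 20.1 to 22.5), and Zbtb16 had 13.7 FPKM in IRI replicate 4 (others 6.76 to 7.96). Chance flags about 1 in 20 groups of 5, and 92 groups were looked at.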

How the results depend on the processing

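The count of clock genes called higher stayed between 6 and 8 under every scaling, filter, test and left-out library tried, and at 6 with the replicate block. It was 4 where a change of at least 2-fold was also asked for. The count called lower was 0 to 1 over the libraries left out, 1 only without IRI replicate 2, where Arntl passed. Per3, uncalled throughout, changed sign to 0.16 with library totals, 0.11 with limma on log2(FPKM + 1) and 0.14 with limma on log2(FPKM + 0.1). No label says that replicate numbers pair the libraries. Same-numbered libraries deviated from their group means with correlations across genes of -0.247 to 0.057. Such values cannot show whether same-numbered mice were operated on or sampled together. The sign-flip test over the 5 same-numbered pairs (replicate block) cannot give p below 0.0625, so no ratio could pass in it. There Per1/Per3 stayed at 1.84 and Per2/Per3 at 1.29, and both missed the threshold (adjusted exact sign-flip p = 0.125). With medians they were 1.92 and 1.32 (adjusted exact permutation p = 0.0952), where passing would have needed all 6 ratios at the smallest possible p. With 1 library left out, Arntl/Clock ranged from -1.04 to -0.50 and passed only without IRI replicate 2. The list of chromatin partners was the most sensitive, with 4 genes called higher by TMM, 10 by library totals or limma, 8 without IRI replicate 3 and 0 at 2-fold, and 1 called lower by DESeq2, without sham replicate 5 or without IRI replicate 1. Causes of these shifts were not tested.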

Other observations

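Chromatin partners of the clock, the cofactors through which REV-ERB, PER and ARNTL complexes act, showed small changes. All 11 passed the filter, of which 4 were called higher and 0 lower by edgeR, with 7 not called (median log2 fold change 0.28), a count near the 34.5% of all genes tested that were called higher. By DESeq2 1 was lower. Ezh2, a histone methyltransferase gene, was at 0.73 ± 0.15, Wdr5 at 0.47 ± 0.11, Kmt2a, which encodes the methyltransferase MLL1, at 0.45 ± 0.11, and Kdm5a, a demethylase gene that also activates the clock, at 0.42 ± 0.13 (adjusted p of 0.000757 to 0.0148, edgeR). None of these reached 2-fold.

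Genes outside the set that followed Arntl most closely between libraries were sought by Pearson r over the 10 libraries of log2 CPM after each group mean was subtracted, a measure of likeness given with no p. For Arntl these were 4930413G21Rik (0.981), Mfsd2b (0.938) and Phkg2 (0.929), and for Dbp 9530068E07Rik (0.923), Itpk1 (0.918) and Gm38317 (0.912). Of these 6, Mfsd2b was called higher in IRI (log2 1.59) and 9530068E07Rik lower (-0.89). With 13324 genes and 10 libraries, values of this size are a ranking and nothing more.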
